A study of Mus musculus with 4 samples.

Results

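The genes examined here encode the proteins that run along the actin filament and cap its pointed end: the tropomyosins Tpm1, Tpm2, Tpm3 and Tpm4, the tropomodulins Tmod1, Tmod3 and Tmod4, and the leiomodins Lmod1, Lmod2 and Lmod3. They were taken by gene symbol from a list of these families that was drawn up with earlier results of these data known, and all 10 were present among the 24445 genes of the expression table. The table came from RNA sequencing of cultured primary myoblasts of C57BL/6 mice, 2 libraries from WT animals and 2 from Tet2 KO animals, which carry a deletion of exon 3 of Tet2 made by homologous recombination. Per the labels both genotypes share the strain, and nothing in them says whether the libraries of a group came from separate animals. The study's methods give male mice of 8 to 10 weeks for experiments where nothing else is stated. In both groups, satellite cells of the hindlimb (CD34+ and Integrin a7+, negative for CD45, CD11b, CD31, Sca1 and the dead-cell dye PI) were purified by flow cytometry. They were then grown on collagen for at least 3 days until they had become MyoD+ myoblasts. Each gene had 1 FPKM value per group (fragments scaled to transcript length and to the number of mapped fragments), which is the authors' value over the libraries of that group. No value per library was used, so no standard deviation and no test stand beside the values, and the spread between animals is unknown.

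Tropomyosin is a coiled coil that binds along the actin filament. In striated muscle it carries the troponin complex and governs the access of myosin to actin, whereas other products of the same genes stabilise actin filaments of the cytoskeleton in nearly all cells. Tropomodulins cap the pointed end of the thin filament and hold its length. Leiomodins are related to them, bind at the same end and promote the nucleation and elongation of actin filaments. Lmod2 and Lmod3 are the leiomodins of striated muscle, and mutations of LMOD3 cause nemaline myopathy. Lmod1 is the leiomodin of smooth muscle.

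In these data the 2 leiomodins of striated muscle were the members that differed most. Lmod2 and Lmod3 stood in Tet2 KO myoblasts at 29.6% and 34.9% of their WT level, Tpm1 and Tpm2 at 70.3% and 68.5%, and Tpm3, Tpm4 and Tmod3 between 92.9% and 103% of WT. Of the 10 members, 8 had a mean of at least 1 FPKM over both groups and 2, Tmod4 and Lmod1, lay below it. A gene was called when log2((Tet2 KO FPKM + 1) / (WT FPKM + 1)) reached 1 or -1, a fixed rule of size that stands in for a test. By this rule 2 of the 8 members were lower in Tet2 KO and 0 were higher, whereas 1.21% of the 11692 genes at this level were called lower, 2.08% higher and 3.29% in either direction. At 1.5-fold the same 2 members were called, against 2.89% of genes lower, 3.72% higher and 6.61% in either direction. Tmod1 stood at 51.2% of WT, 1.95-fold lower by its FPKM. It was not called at 1.5-fold because of the pseudocount of 1, so this count depends on the pseudocount. In direction, 7 of the 8 were lower and 1 was higher, against 51.2% of all genes lower. The median log2 ratio was -0.53 for the 8 members, -0.31 for all 10 with Tmod4 and Lmod1 included, and -0.0044 for the 11692 genes.

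The members lie at separate places in the genome, given here in mm9. Tpm1 is on the minus strand of chromosome 9 from 66870400 to 66897020, Tpm2 on the minus strand of chromosome 4 from 43526598 to 43536426, Tpm3 on the plus strand of chromosome 3 from 89876573 to 89904824 and Tpm4 on the plus strand of chromosome 8 from 74659191 to 74677028. Lmod2, a gene of 3 exons, spans 24547771 to 24555414 on the plus strand of chromosome 6, and Lmod3, also of 3 exons, spans 97188522 to 97202774 on the minus strand of the same chromosome. Lmod1 lies on chromosome 1 from 137221390 to 137264642. Tmod1 spans 46051807 to 46128904 on chromosome 4 in the annotation used here. The expression table gives it 46052094 to 46151347, an interval it shares with the gene Tstd2. Tmod4 spans 94928436 to 94933130 on chromosome 3, and Tmod3 spans 75345591 to 75407464 on chromosome 9 next to Tmod2, the tropomodulin of neurons. The annotation used here, GENCODE vM1 of the same build, gave 16 coding transcripts for Tpm1, 5 for Tpm2, 9 for Tpm3 and 1 for Tpm4. Long tropomyosins of 284 codons, which include the tropomyosins of the sarcomere, were 7 of the 16 complete coding sequences of Tpm1, 3 of 4 of Tpm2 and 2 of 7 of Tpm3. The short form of 248 codons, found in the cytoskeleton, made up 3 coding sequences of Tpm1, 0 of Tpm2, 3 of Tpm3 and the 1 of Tpm4. A gene's FPKM sums these forms, so a difference in the long form and one in the short form of Tpm1 or Tpm3 cannot be told apart here.

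Sequences upstream of an annotated transcription start are shown for 3 members that were lower and, as a contrast, for Tpm4, the tropomyosin whose level differed least. Members that differ together invite a look at what their promoters share. The sequences are the 250 bases before a start given by RefSeq (GRCm38.p6), which gave 9 windows for 8 of the 10 members, all but Lmod3 and Tmod3. Coding transcripts in GENCODE vM1 began at 16 positions for Tpm1, 4 for Tpm2, 9 for Tpm3 and 2 for Tmod1. Which start gave the measured transcripts is unknown. Each window was found once in mm9 by exact match, and for Lmod2, Tmod1 and Tpm2 the RefSeq start was the same base as the start of the gene in the expression table. In mm9 they are chr6:24547521-24547770 (plus strand) for Lmod2, chr4:46051844-46052093 (plus strand) for Tmod1, chr4:43536427-43536676 (minus strand) for Tpm2 and chr8:74658937-74659186 (plus strand) for Tpm4. GENCODE vM1 places the start of Tmod1 at 46051807 and that of Tpm4 at 74658874, both before their windows. It places the start of Tpm2 at 43536637, inside its window. By that annotation the windows of Tmod1 and Tpm4 lie wholly within the gene and that of Tpm2 partly. Capitals mark matches to CANNTG, the E-box bound by MyoD and myogenin, and to a MEF2-like pattern (CTA, any 4 bases, TAG).
Lmod2: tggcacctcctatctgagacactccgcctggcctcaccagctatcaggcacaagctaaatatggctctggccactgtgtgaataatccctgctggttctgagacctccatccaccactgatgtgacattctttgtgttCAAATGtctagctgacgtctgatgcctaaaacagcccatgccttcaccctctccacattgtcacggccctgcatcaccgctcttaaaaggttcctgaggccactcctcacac
Tmod1: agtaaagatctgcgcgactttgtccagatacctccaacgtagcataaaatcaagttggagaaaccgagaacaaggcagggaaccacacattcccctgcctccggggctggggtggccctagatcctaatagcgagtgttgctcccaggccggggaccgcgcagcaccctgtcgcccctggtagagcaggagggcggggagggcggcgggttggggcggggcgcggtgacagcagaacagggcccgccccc
Tpm2: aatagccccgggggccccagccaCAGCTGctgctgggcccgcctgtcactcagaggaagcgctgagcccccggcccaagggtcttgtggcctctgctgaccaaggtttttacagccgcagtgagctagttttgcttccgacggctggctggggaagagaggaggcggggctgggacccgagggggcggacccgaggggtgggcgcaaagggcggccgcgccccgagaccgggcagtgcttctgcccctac
Tpm4: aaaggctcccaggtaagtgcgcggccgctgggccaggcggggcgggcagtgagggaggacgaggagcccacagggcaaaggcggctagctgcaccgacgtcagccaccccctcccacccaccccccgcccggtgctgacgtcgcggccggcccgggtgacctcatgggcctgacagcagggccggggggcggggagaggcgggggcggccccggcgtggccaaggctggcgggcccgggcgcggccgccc

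The windows differed in the patterns they held. Lmod2 held 1 E-box, beginning at position -112 from the start. Tpm2 held 1, beginning at position -227 and reading CAGCTG, and Tmod1 and Tpm4 held none. Over all members with a window, CANNTG was found in 7 of 9 windows, against 66.2% of 32851 RefSeq promoter windows of the same length. Its subset CAGCTG was found in 3 of 9 windows, those of Lmod1, Tpm2 and the upstream window of Tpm3, against 13% of all windows. The MEF2-like pattern was found in 0 of 9, against 3.2%, which covers that pattern alone, since other forms of the MEF2 site were not searched. The CArG-like pattern (CC, any 6 bases, GG), a loose form of the serum response factor site, was found in 8 of 9, against 67.1%. All 4 patterns read the same on both strands. The windows differed in base composition: GC content was 78.8% with 27 CpG sites for Tpm4, 69.6% with 17 for Tpm2, 64.0% with 17 for Tmod1 and 52.4% with 4 for Lmod2, and the median of all windows was 52.4% with 6 CpG sites. A match is a description of these letters and not a binding site.

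The leiomodins had the widest differences. Lmod3 had 31.6 FPKM in WT and 11.0 FPKM in Tet2 KO, a level 2.87-fold lower in Tet2 KO. Its log2 ratio was -1.44, and 0.351% of the 11692 genes had a ratio as low or lower. Lmod2 had 11.4 FPKM in WT and 3.38 FPKM in Tet2 KO, a level 3.37-fold lower, and its log2 ratio of -1.50 put it 32nd from the lowest of those genes. No other member was past 2-fold. The study displayed Lmod2 in a heat map of chosen genes from these libraries, so its difference is not independent evidence. Lmod1 was low in both groups, with 0.265 FPKM in WT and 0.176 FPKM in Tet2 KO, which correspond to roughly 57 and 37 fragments per group, and no ratio was read from it. Smooth muscle markers were mixed beside it: Myh11, the smooth muscle myosin heavy chain, and Cnn1, calponin, stood at 0.155 and 0.117 FPKM in WT, whereas Acta2, an actin that immature skeletal muscle also makes, stood at 236 FPKM in WT and 146 FPKM in Tet2 KO. Of the 8 smooth muscle markers 4 reached a mean of 1 FPKM, 3 of them lower and 1 higher in Tet2 KO, with a summed level of 263 FPKM in WT and 168 FPKM in Tet2 KO. None of the 4 was past 2-fold at a pseudocount of 1, and 1, Synpo2, was lower past 2-fold without it (2.49 FPKM in WT and 1.19 FPKM in Tet2 KO).

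**Figure D1:**
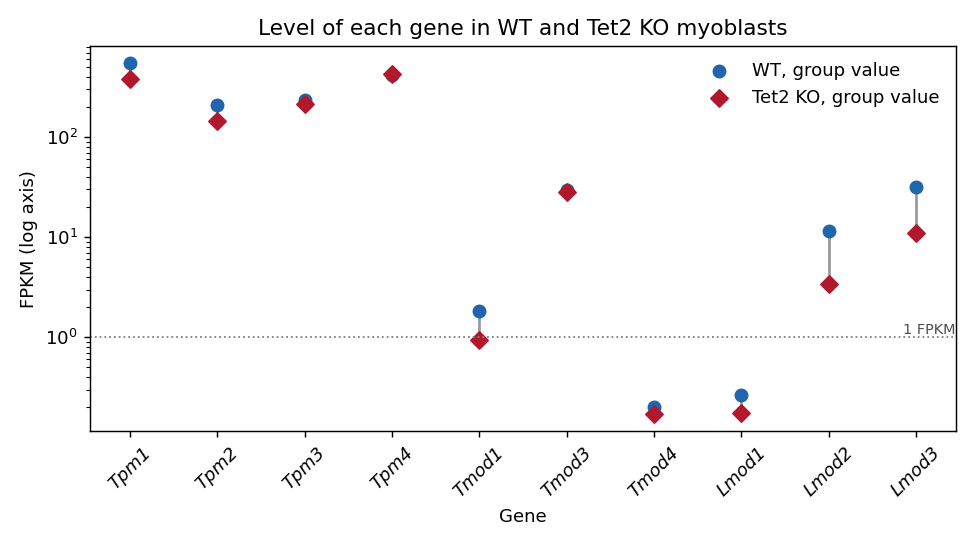
FPKM of each of the 10 genes (log axis) in WT (circles) and Tet2 KO (diamonds) myoblasts, 1 group value each, joined by a line; no error is available. Lmod2 and Lmod3 show the widest gaps, Tpm4 and Tmod3 almost none, and Tmod4 and Lmod1 lie below 1 FPKM in both groups.

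Of the tropomodulins, Tmod3, the ubiquitous form, was the one expressed at an appreciable level. It had 29.9 FPKM in WT and 28.0 FPKM in Tet2 KO, with a log2 ratio of -0.093 that lay within the middle of all genes (lower to upper quartile from -0.11 to 0.091). Tmod1, a form of heart, red cells and skeletal muscle, had 1.85 FPKM in WT and 0.948 FPKM in Tet2 KO. Its level in Tet2 KO was 51.2% of WT, and the log2 ratio was -0.55 on the log2(FPKM + 1) scale and -0.97 without the pseudocount, which shrinks the ratio of a gene this low. These levels correspond to roughly 314 and 157 fragments. The table gave Tmod1 the same interval as Tstd2, a gene on the opposite strand with 22.9 FPKM in WT and 21.2 FPKM in Tet2 KO, and 32.6% of the exonic bases of Tmod1 overlap exons of Tstd2. The library kit does not mark strand, so reads of the overlap cannot be assigned with certainty and the value of Tmod1 is uncertain. Markers of red cells were at or near 0: of 7 in the table, 0 were at 0 in Tet2 KO and 3, the globin genes Hbb-b1, Hba-a1 and Hba-a2, were listed at 0 in WT, and their summed level was 0.594 and 0.340 FPKM. Tmod4, a tropomodulin of adult skeletal muscle, had 0.199 FPKM in WT and 0.172 FPKM in Tet2 KO, roughly 12 and 10 fragments, too few to read a difference. Tmod2, which is no member, had 1.47 FPKM in WT and 1.11 FPKM in Tet2 KO.

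The tropomyosins were far more abundant than the genes of the pointed end, with levels of 212 to 545 FPKM in WT. Tpm1, the main tropomyosin of fast and embryonic muscle, had 545 FPKM in WT and 383 FPKM in Tet2 KO, a log2 ratio of -0.51. Tpm2, beta-tropomyosin, had 212 FPKM in WT and 145 FPKM in Tet2 KO, a log2 ratio of -0.54. Neither reached 2-fold, but few genes were as low: 3.53% of all genes had a ratio at or below that of Tpm1, and 3.16% at or below that of Tpm2. Tpm3, which gives the slow muscle form and several cytoskeletal forms, had 233 FPKM in WT and 217 FPKM in Tet2 KO, a log2 ratio of -0.11. Tpm4, a cytoskeletal tropomyosin, had 414 FPKM in WT and 425 FPKM in Tet2 KO, a log2 ratio of 0.04, and was the only member with a higher value in Tet2 KO. The order of the levels therefore differed between groups, from Tpm1, Tpm4, Tpm3 and Tpm2 in WT to Tpm4, Tpm1, Tpm3 and Tpm2 in Tet2 KO. Whether Tpm1 and Tpm4 differ within a group beyond the spread of libraries is unknown.

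**Figure D2:**
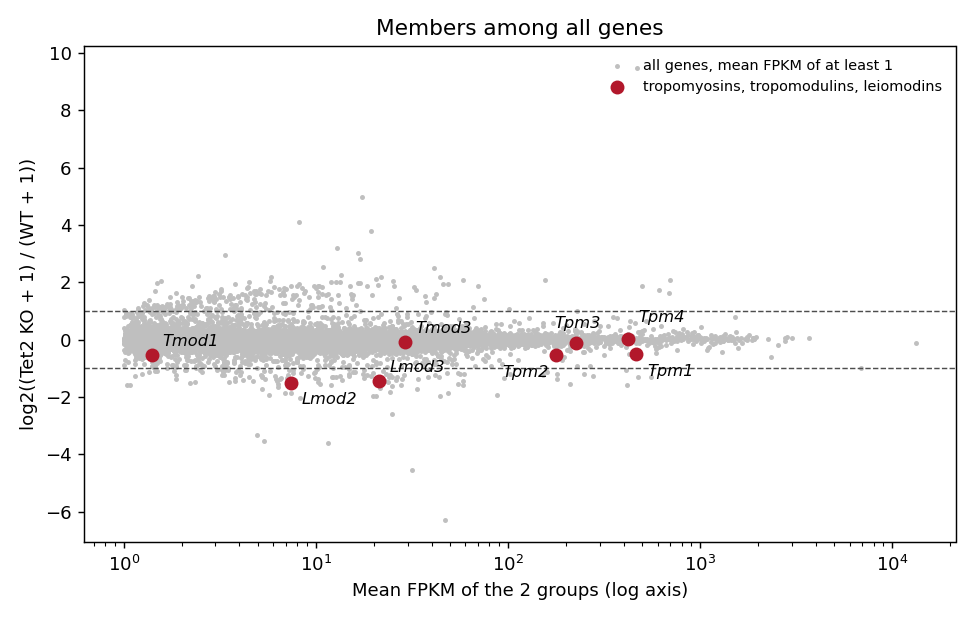
Mean FPKM over both groups (log axis) against the log2 ratio of Tet2 KO to WT at a pseudocount of 1 for the 11692 genes with a mean of at least 1 FPKM (grey) and the 8 members among them (red); dashed lines mark 2-fold. Lmod2 and Lmod3 lie below the lower line, Tmod1, Tpm1 and Tpm2 between it and the bulk of genes, and Tpm3, Tpm4 and Tmod3 inside the bulk.

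The tropomyosins resemble each other in sequence, which bears on how well reads can be assigned. Aligned over their longest complete coding sequences, the 6 pairs were identical at 69.3% to 77.2% of bases, and the 15 pairs among tropomodulins and leiomodins at 62.0% to 68.1%. The longest stretch that any pair of tropomyosins shared without a mismatch in these sequences was 35 bases, the first 35 of Tpm1 and Tpm2. The second longest was 32 bases, in Tpm3 and Tpm4. Both are shown as the longest exact runs between the sequences compared. Other coding forms and untranslated parts were not compared, so longer shared runs may exist.
Tpm1 and Tpm2: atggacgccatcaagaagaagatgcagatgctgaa
Tpm3 and Tpm4: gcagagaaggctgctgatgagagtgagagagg

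Copies elsewhere in the genome matched over longer stretches than the paralogues did in the coding sequences compared. For Tpm3 a copy with 99.2% identity over 1910 bases lies on chromosome 14 from 113714030 to 113715936, annotated as Tpm3-rs7, and such stretches covered 85.4% of the longest coding transcript. For Tpm4 a copy with 95.3% identity over 2109 bases lies on chromosome 17 from 22103136 to 22105239, annotated as the pseudogene Gm7809 inside Zfp943, and covered 98.3% of the transcript. The levels of Tpm3 and Tpm4 are uncertain for this reason, since the treatment of reads with several places was not given in the sources used here. Tpm1, Tpm2, Tmod4, Lmod1, Lmod2 and Lmod3 had no stretch elsewhere of at least 75 bases and 95% identity. In Tmod1 and Tmod3 such stretches covered 6.24% and 4.11% of the transcript.

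FPKM is scaled to transcript length, so the levels of different genes can be added. The summed tropomyosin level was 1405 FPKM in WT and 1171 FPKM in Tet2 KO. Tpm1 made up 38.8% of it in WT and 32.8% in Tet2 KO, and Tpm2 15.1% and 12.4%. Tpm4 made up 29.5% in WT and 36.3% in Tet2 KO, and Tpm3 16.6% and 18.5%. Tpm1 and Tpm2 together thus held 53.9% of tropomyosin transcripts in WT and 45.1% in Tet2 KO, while the summed level of Tpm3 and Tpm4 was 648 and 642 FPKM. At the pointed end, the leiomodins held 57.5% of the summed level of tropomodulins and leiomodins in WT and 33.4% in Tet2 KO. The ratio of leiomodin to tropomodulin transcripts was 1.35 in WT and 0.501 in Tet2 KO, and Tmod3 alone went from 39.8% to 64.1% of the sum.

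**Figure D3:**
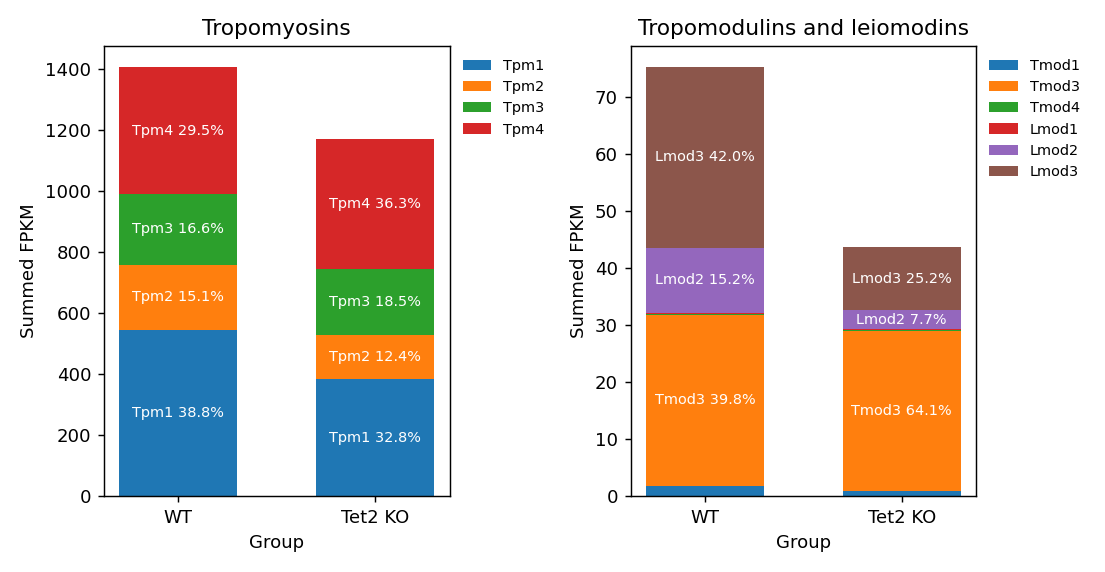
Summed FPKM of the 4 tropomyosins (left) and of the 6 tropomodulins and leiomodins (right) in WT and Tet2 KO, stacked by gene, with the share of the sum printed for genes above 5%. Tpm1 is the largest part in WT and Tpm4 in Tet2 KO, and at the pointed end Lmod3 is the largest part in WT and Tmod3 in Tet2 KO.

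The members were set beside the other proteins of the thin filament. Of 12 partners (skeletal and cardiac alpha-actin, nebulin, nebulette and the troponins), 10 reached a mean of 1 FPKM, all 10 were lower in Tet2 KO and 7 were past 2-fold, with a median log2 ratio of -1.18. Tnnc2, the calcium-binding troponin C of fast muscle, was lowest, with 140 FPKM in WT and 36.1 FPKM in Tet2 KO. Tnnt1, the troponin T of slow muscle, was nearest to no change, with 375 and 259 FPKM. Acta1, skeletal alpha-actin and the most abundant partner, had 629 FPKM in WT and 207 FPKM in Tet2 KO, and Neb, the giant protein that spans the thin filament, 53.2 and 28.8 FPKM. The ratios of Lmod2 and Lmod3 lay inside the range of these partners, from -1.92 to -0.53. Those of Tpm2 and Tmod1 lay near its upper end, but without the pseudocount Tmod1 was at -0.97 in a range of -1.95 to -0.53. The ratios of Tpm1, Tpm3, Tpm4 and Tmod3 lay above the range. The ratio of tropomyosin to sarcomeric actin transcripts (Acta1 and Actc1) was accordingly 1.43 in WT and 2.99 in Tet2 KO. That of tropomyosin to troponin T transcripts was 1.65 and 2.56. Both ratios include Tpm3 and Tpm4, which differed little. For Tpm1 and Tpm2 alone the ratio to sarcomeric actin was 0.773 in WT and 1.35 in Tet2 KO. The ratio of leiomodin to sarcomeric actin transcripts was 0.0442 in WT and 0.0372 in Tet2 KO.

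Proteins that help to build the filaments were also lower. All 10 genes of thin filament assembly had a lower value in Tet2 KO, 6 of them past 2-fold, with a median of -1.12. Nrap, a scaffold of early myofibrils, was lowest, with 33.5 FPKM in WT and 9.81 FPKM in Tet2 KO. Cfl2, the muscle cofilin, which severs actin filaments, was nearest to no change, with 69.8 and 52.0 FPKM, and Cryab, a small heat shock protein and the most abundant of the list, had 111 and 67.4 FPKM. Klhl40, which stabilises the Lmod3 protein, had 24.9 FPKM in WT and 10.2 FPKM in Tet2 KO. The thick filament list was alike, with 13 of 13 measured genes lower, 12 past 2-fold and a median of -1.35, from Myh1 at -1.86 to titin (Ttn) at -0.93; its most abundant gene, Mylpf, had 790 and 321 FPKM.

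Genes of actin filaments that are not specific to muscle lay on both sides of no difference. In the list of barbed end capping, the opposite end of the filament from tropomodulin, 4 of 10 genes were lower and 6 higher, 0 were past 2-fold and the median was 0.04. Capza2, a subunit of capping protein, had 170 FPKM in WT and 171 FPKM in Tet2 KO. Eps8 at -0.45 and Gsn, gelsolin, at 0.28 were the extremes. In the list of cytoskeletal actin, 6 of 11 were lower and 5 higher, 0 were past 2-fold and the median was -0.0013, from Dstn at -0.22 to Cap1 at 0.15, with Actb, beta-actin, at 2219 and 2271 FPKM. The ratio of tropomyosin transcripts to those of Actb and Actg1 was 0.470 in WT and 0.388 in Tet2 KO.

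**Figure D4:**
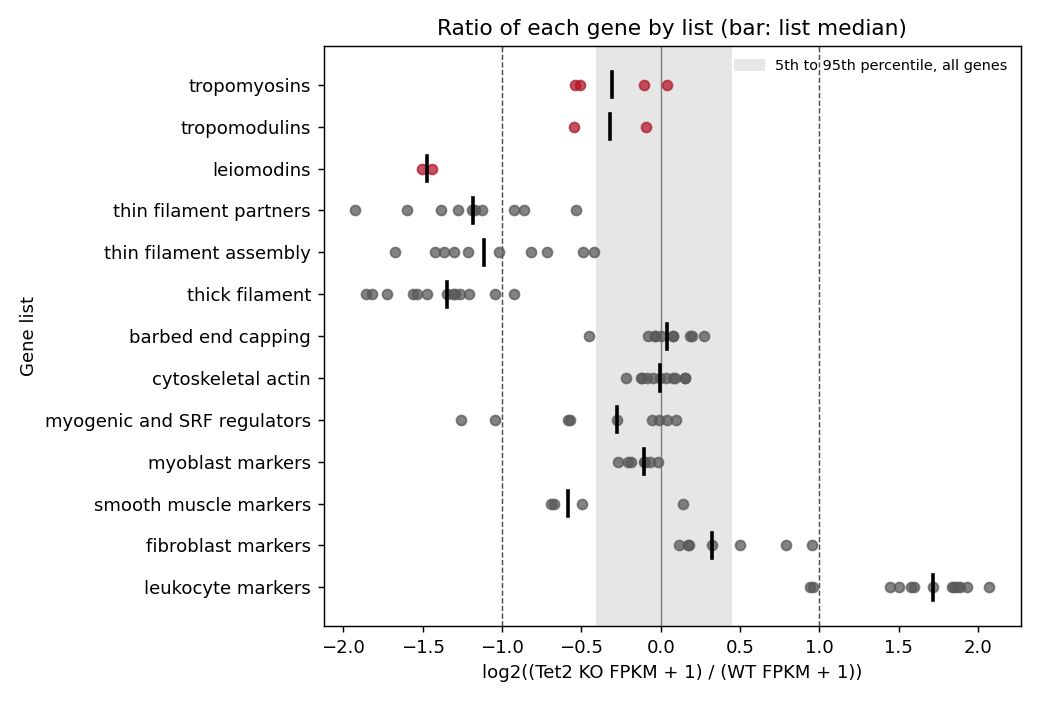
Log2 ratio of Tet2 KO to WT at a pseudocount of 1 for each gene with a mean of at least 1 FPKM, by list; red points are tropomyosins, tropomodulins and leiomodins, black bars are list medians, the grey band spans the 5th to the 95th percentile of all genes (-0.40 to 0.44) and dashed lines mark 2-fold. The leiomodins lie with the partners, assembly and thick filament genes, Tpm3, Tpm4 and Tmod3 with the capping and cytoskeletal lists, and leukocyte markers lie on the opposite side.

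Regulators known to act on such genes were mixed. Of 10, 9 reached a mean of 1 FPKM, 7 were lower and 2 higher, and 2 were past 2-fold, Myog with 554 FPKM in WT and 268 FPKM in Tet2 KO and Mef2c with 27.8 and 11.1 FPKM. Srf, the serum response factor, had 24.4 and 23.4 FPKM, and its coactivators Mkl1 and Mkl2, which pair with it on many actin cytoskeleton genes, had log2 ratios of -0.01 and 0.04. The study singled out Myog and Mef2c on these libraries, so their differences are not independent evidence.

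The identity of the culture was checked on markers. All 7 myoblast markers were expressed, with 336 FPKM of Myod1 in WT and 313 FPKM in Tet2 KO, and they ranged in log2 ratio from -0.27 for Des, desmin, the most abundant with 449 FPKM in WT and 372 FPKM in Tet2 KO, to -0.02 for Pax7, with a summed level of 1360 FPKM in WT and 1209 FPKM in Tet2 KO. All 13 leukocyte markers were higher in Tet2 KO, 11 of them past 2-fold at a pseudocount of 1 and 13 without it, with a median of 1.72, a range from 0.94 for Cd68 to 2.07 for Lyz2 and a summed level of 618 FPKM in WT and 2194 FPKM in Tet2 KO; the most abundant, S100a8, had 285 and 941 FPKM, and none was at 0. Leukocytes also make Tpm3, Tpm4 and Tmod3. The part of these cells in the ratios of the members was not tested. Of 8 fibroblast markers 7 reached a mean of 1 FPKM and all 7 were higher, 0 past 2-fold at a pseudocount of 1 and 1, Dcn, without it (3.15 FPKM in WT and 7.04 FPKM in Tet2 KO), from 0.11 for Thy1 to 0.95 for Dcn, with a summed level of 186 FPKM in WT and 221 FPKM in Tet2 KO, of which Col3a1 had 152 and 171 FPKM. Of 7 endothelial markers, 1 reached a mean of 1 FPKM, Pecam1 with 1.63 and 1.48 FPKM, and their sum was 4.65 and 3.91 FPKM. In bulk RNA, fewer cells that make a transcript and less of it per cell cannot be told apart.

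The targeted gene gave no check of the labels. Tet2 had 6.64 FPKM in WT and 5.79 FPKM in Tet2 KO, a value over all exons in which the deleted exon is not seen on its own. The depth estimated from these values was similar in both groups. In genes with a single annotated transcript, low values fell near whole multiples of 0.0177 FPKM times kilobase in Tet2 KO and 0.0173 in WT. This step was taken as the worth of 1 fragment. With it 82.3% and 83.2% of values lay within 0.1 of a whole number. The step was chosen to make this share largest, so the share is no check of it. The step corresponds to about 56500000 and 57800000 fragments in Tet2 KO and WT if the libraries of a group were averaged and of like depth. Counts of fragments given above rest on this step and on the longest annotated transcript, and cover neither differences between libraries nor between animals.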

How the data were processed

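The data are RNA-seq libraries of primary myoblasts in culture, 2 of WT and 2 of Tet2 KO (TruSeq RNA kit v2). Per the study's methods and the submitters' processing notes, the authors trimmed read pairs, aligned them to mm9 with TopHat2 2.0.13 and estimated expression with Cuffdiff 2.2.1. The annotation they used was not given in the sources used here. The deposited table holds 1 FPKM value per gene and group, combined by the authors over the libraries of a group; how they were combined is not stated. The table also holds the authors' own comparison (log2 fold change, test statistic, p-value, q-value), which was not used.

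Genes were matched by symbol. Ratios were log2((Tet2 KO FPKM + 1) / (WT FPKM + 1)); genes with a mean of at least 1 FPKM entered counts and medians, and 2-fold was the rule for a call. With 1 value per group no test across libraries could be made and no p-value is given. The members, gene lists, named genes and rules were chosen with earlier results of these data known. Named were all members, the extremes and the most abundant gene of each list, and Tet2, Tmod2, Myog and Myod1, except 1 gene that is not reported here; Klhl40, Neb, Srf, Mkl1, Mkl2 and the other genes outside that rule were added for their role after their values were seen. Promoters were printed for the members with the largest fall that had a RefSeq entry and for the tropomyosin that differed least. Starts of the table count from 0 and were raised by 1. Exons, transcripts and overlaps came from GENCODE vM1. Coding sequences were aligned globally with Biopython 1.88; copies were searched with megablast of BLAST+ 2.17.0 in the mm9 genome (at least 95% identity over 75 bases). Protein sequences were not used here. Scripts ran in Python 3.11.15 with pandas 2.3.3, numpy 2.4.6 and matplotlib 3.10.9. The ratio and the fragment step were tested on simulated data.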

Additional observations from a re-analysis of the deposited data

How the results depend on the processing

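No paired analysis was possible because each genotype is represented by a single combined FPKM, and leaving out 1 replicate at a time could not be run either. The 10 members kept their direction and their side of 2-fold under a pseudocount of 0.1, no pseudocount, TPM and median centring. Lmod2 and Lmod3 stayed called at 1.5-fold, and 0 members were called at 3-fold on the log2(FPKM + 1) scale. The count of all genes lower past 2-fold moved from 142 to 215 with a pseudocount of 0.1, to 224 with none, to 338 at 1.5-fold and to 25 at 3-fold. The count of genes higher moved from 243 to 334 with a pseudocount of 0.1, to 341 with none, to 435 at 1.5-fold and to 81 at 3-fold. With a mean of at least 5 FPKM 106 genes were lower and 109 higher, and with TPM 168 were lower and 293 higher. The median of the members moved from -0.53 to -0.31 with no filter. Counts past 2-fold without a pseudocount were added after seeing the data, as was that median: they rose by 1 gene each for smooth muscle markers (Synpo2), fibroblast markers (Dcn) and neighbours (Frmd4b) and by 2 for leukocyte markers (Cd68 and Laptm5), and were equal for all other lists. The median of the tropomyosins moved from -0.31 to -0.11 without Tpm1 or Tpm2 and to -0.51 without Tpm3 or Tpm4, since the family holds a lower and a level pair. The median of the tropomodulins rested on 2 genes and moved from -0.32 to -0.50 with a pseudocount of 0.1, to -0.53 with none, and to -0.093 with no filter or with a mean of at least 5 FPKM, which add Tmod4 or leave out Tmod1. The ratio of tropomyosins to sarcomeric actins, 2.08-fold higher in Tet2 KO, was 2.29-fold higher without Tpm1, and that to troponin T, 1.55-fold higher, was 1.71-fold higher. With Tpm1 and Tpm2 alone the ratio to sarcomeric actins was 1.75-fold higher. The ratio of all tropomyosins was 2.53-fold higher to Acta1 alone and 1.59-fold higher to Actc1 alone. Low fragment numbers limit Tmod4 and Lmod1 most.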

Other observations

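Genes beside the members on the chromosome were compared to see whether a difference extended past the member. The nearest gene of the table on each side with a mean of at least 1 FPKM gave 20 neighbours. Of these 12 were lower and 8 higher in Tet2 KO, against 51.2% of all genes lower, and the median log2 ratio was -0.04. At a pseudocount of 1, 0 of the 20 were past 2-fold, against 3.29% of the 11692 genes. Without it 1 was, Frmd4b beside Lmod3, where 224 of all genes were lower and 341 higher past 2-fold. So few neighbours cannot show a departure from these shares. Lmod2 lies between Ndufa5, a subunit of mitochondrial complex I with a log2 ratio of -0.20, and Wasl, an activator of actin branching, at 0.01. Lmod3 lies between Arl6ip5 at -0.39 and Frmd4b, which at -0.79 had the lowest ratio of the 20 neighbours, with 4.55 FPKM in WT and 2.21 FPKM in Tet2 KO. Tpm1 lies between Lactb at -0.03 and Tln2, one of the talins that couple actin to integrins, at -0.05. Tpm2 lies between Arhgef39 at 0.04 and Tln1, the other talin, at 0.19. Tpm1 and Tpm2 thus each have a talin gene as neighbour, which was noticed after the values were seen, and neither talin gene was past 2-fold. Tmod4 had 0.199 FPKM in WT although its neighbours Vps72 and Scnm1, 1463 and 511 bases away, had 35.8 and 34.3 FPKM.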
